A study of Homo sapiens with 9 samples.

Results

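Baseline gene expression was described in vehicle-treated M0 THP-1 cells, the control state of a drug study, from the 3 arrays labelled vehicle out of 9 in the series. THP-1 is an established line grown from a monocytic leukaemia, and the phorbol ester PMA (also called TPA) turns its dividing suspension cells into adherent, macrophage-like cells, the state the labels call M0. All cells of the series had been differentiated with PMA; the vehicle cells then received vehicle for 16 h, while the other arrays, not used here, came from cells given 0.5 µM cisplatin or 100 nM osimertinib for the same time. Neither the vehicle nor the dose and duration of PMA is given in the sources read. The labels call the 3 vehicle samples biological replicates. All come from 1 cell line, so their spread holds no differences between people.

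The members were all rows of the deposited table that carry 1 gene symbol, with the brightest row taken for a gene with several. This gave 14884 genes from 16098 of 53617 rows. Values lie on a log2-like scale, on which 1 unit is a factor of 2 in signal. The order of genes by level is given as a description: probe sequences bind with different strength, so a level of one gene against another is not a ratio of RNA amounts. No detection call comes with the values. As a yardstick, the 84 named keratin-associated protein genes, which build hair and have no known role in macrophages, were taken. The 95th percentile of their levels, 5.55, is called the reference limit. The olfactory receptor, bitter taste receptor and beta-defensin families planned for the same purpose had 0 named members.

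Macrophages are the resident phagocytes of tissues. Surface receptors recognise microbes, dying cells and modified lipids, the cargo is digested in acid lysosomes, and the cells answer with chemokines, cytokines, matrix enzymes and antigen presentation. The transcription factor PU.1 (gene SPI1) sets up this programme in myeloid cells, and the growth factor receptor CSF1R keeps macrophages alive. PMA acts through protein kinase C and the AP-1 transcription factors, whose DNA site was first known as the TPA response element. THP-1 cells carry a fusion of the KMT2A and MLLT3 genes.

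The vehicle cultures gave nearly the same profile on each array. Pearson's r over the 14884 genes was 0.992 to 0.993 for the pairs of arrays, a description across genes, which are not independent replicates. The median SD of a gene was 0.11 log2 units, and 30 to 38 genes differed by more than 1 unit between a pair. No array stood apart: the median gene level was 4.26, 4.28 and 4.23 on vehicle arrays 1, 2 and 3. The spread was smallest among bright genes, with a median SD of 0.069 in the highest decile of levels and 0.14 in the fourth decile. Exact ties lower the SD of some genes, since 238 genes had 1 equal value on all 3 arrays. For arrays no read depth exists, and 3 arrays limit the precision of every SD.

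Gene levels ran from 1.00 to 12.02, with a median of 4.26. Of all named genes, 4074 (27.4%) had a mean above the reference limit, and 3811 lay above it on all 3 arrays. The count follows the limit by construction: 1159 genes were above the 99th percentile of the same keratin-associated genes, and 7442 above the median of all genes. Among protein-coding genes the share was 31.9%, or 3804 of 11916. Most other classes sat lower: 82 of 1398 long non-coding RNAs (5.87%), 104 of 1072 microRNA genes (9.70%) and 59 of 447 transcribed pseudogenes (13.2%) were above it. The small class of other small or structural RNAs sat higher, with 25 of 51 (49.0%) above the limit.

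**Figure D1:**
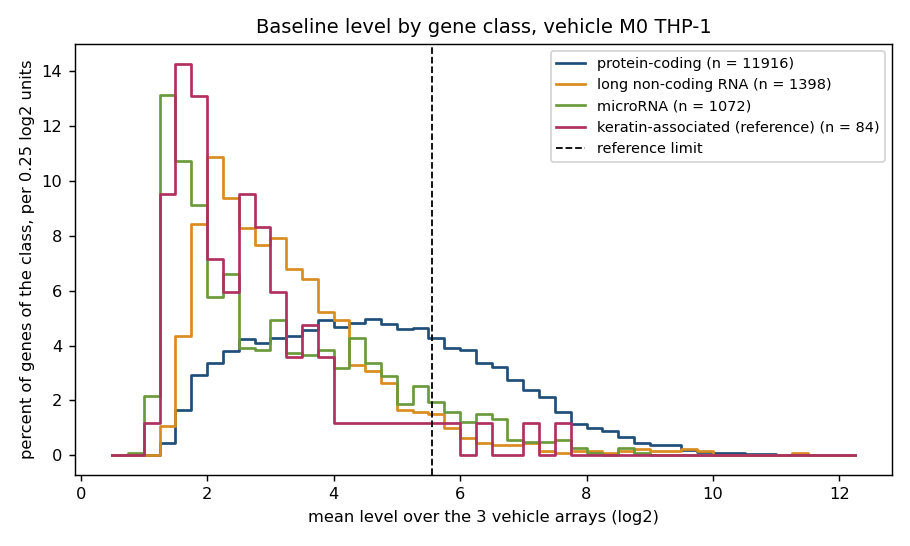
Percent of genes of each class (vertical axis) by mean level over the 3 vehicle arrays in log2 units (horizontal axis, steps of 0.25), with the reference limit of 5.55 as a dashed line. Protein-coding genes spread across the scale with a median of 4.59, while long non-coding RNAs and microRNA genes crowd the low end with medians of 3.00 and 2.62.

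A low value must be read with care, because genes that every cell uses also had low values. Of 53 named cytosolic ribosomal protein genes, 31 were above the limit, and of 73 mitochondrial ribosomal protein genes 27 were. Both shares exceed the 31.9% of all protein-coding genes, yet many members of each family lay under the limit. CFL1, which encodes the actin-severing protein cofilin, was at 4.11 ± 0.059 (SD, n = 3), and LDHA, the lactate dehydrogenase subunit, at 4.13 ± 0.033. The glycolytic enzyme GAPDH, often used as a loading control, was at 5.52, 5.84 and 5.74 on the 3 arrays. A level under the limit therefore does not show that a transcript is scarce in these cells, and only levels above it are read as signal below. Why these rows are dim was not tested.

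The brightest named protein-coding gene was LAPTM5, a lysosomal membrane protein of blood cells, at 12.05, 12.05 and 11.97. Only named rows are ranked here, and 32 rows without a gene name were brighter. SCD, the enzyme that puts the double bond into stearic acid, followed at 11.91, 11.91 and 11.88. CALR, the calcium-binding chaperone of the endoplasmic reticulum, stood at 11.58, 11.62 and 11.62. These ranges did not overlap, so the order of the first 3 held on every array. YBX1, a protein that binds RNA and DNA, averaged 11.50 ± 0.010 (SD, n = 3), and SPP1, the secreted phosphoprotein osteopontin, averaged 11.50 ± 0.077. Their ranges overlapped and their order is not settled. Among the 24 neighbouring pairs of the 25 brightest protein-coding genes, 15 overlapped. The membership of this group was firmer than its order, since 24 genes were among the 25 brightest on all 3 arrays.

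Known roles of the 25 brightest genes are given as background, sorted after their values were seen. Lysosomal proteins are encoded by LAPTM5, the thioesterase PPT1 (11.29 ± 0.020, SD, n = 3), the protease cathepsin D, CTSD (10.94 ± 0.078), and PSAP (10.63 ± 0.079), whose product is cut into activators of lipid hydrolases. Secreted or surface proteins of tissue remodelling are encoded by SPP1, the chitinase-like protein CHI3L1 (11.35 ± 0.020), the membrane-bound collagenase MMP14 (10.75 ± 0.015), the matrix protein fibronectin, FN1 (10.59 ± 0.044), and the heparan sulphate proteoglycan GPC4 (10.35 ± 0.024). Proteins of the cell cortex are moesin, MSN (11.01 ± 0.026), the leukocyte actin bundler LCP1 (10.83 ± 0.046) and DOCK10 (10.36 ± 0.078), an activator of small GTPases. Among the 25 were also the amyloid-like precursor protein APLP2 (11.41), the lipid scramblase ANO6 (10.82), the elongation factor EEF2 (10.72), the chromatin protein HMGA1 (10.66) and the splicing regulator PTBP1 (10.39). The remaining 6 were SMAP2 (11.07), RLF (10.53), ZMPSTE24 (10.40), GLIPR1 (10.38) and PEA15 (10.31), beside YBX1 given above. The values of SCD and HMGA1 come from the brighter of their 2 rows, and the mean over both rows of SCD was 9.61. Other genes named below also rest on the brighter of several rows, and 162 genes had a brightest row above the reference limit and a dimmest row that was not. Among those named in the text, the dimmest row was 3.16 for KRT18, 4.28 for MEF2C, 3.73 for EGR1, 2.76 for IRAK3 and 2.05 for MIR423. It was 4.95 for SIRPA, 4.14 for SERF2 and 5.54 for MIR4292. For the non-coding genes LINC01347, LINC00987 and PMS2P5 it was 4.54, 4.48 and 2.74. TIMP3, bright in one row, was at 5.76 in the other. With the mean over all rows of a gene, the lists of epithelial markers and of HOXA genes and partners had 0 members above the limit, and the myeloid factor and Toll-like receptor lists had 8 each.

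The label of these cells was checked against 9 named macrophage and monocyte markers of 15 fixed ones. LAPTM5, CD68, CSF1R and TYROBP were above the reference limit, and CD14, LYZ, MSR1, MARCO and CD163 were not. CD68, a glycoprotein of macrophage endosomes, read 9.37, 9.50 and 9.44. CSF1R read 8.42, 8.67 and 8.61, and TYROBP, the signalling adaptor of many myeloid receptors, read 7.32, 7.69 and 7.45. All 3 genes were above the limit on every array. CD14, the co-receptor for bacterial lipopolysaccharide, was under the limit at 4.30, 4.24 and 4.11. LYZ, which encodes the lysozyme that monocytes secrete, was listed at 3.28, 3.03 and 3.04, and its other row at 2.10. CD163, the haemoglobin scavenger receptor, was at 2.45, 2.45 and 2.61. The named part of the marker list thus holds bright and dim members, and ITGAM, ITGAX, MRC1, FCER1G, AIF1 and CD33 were not named in the table used here.

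In the wider list of macrophage and monocyte genes, 7 of 21 named members (33.3%) were above the limit, near the 31.9% of all protein-coding genes, with a median level of 4.70 against 4.59 over protein-coding genes. Beside those given, they were SIRPA (7.74 ± 0.061, SD, n = 3), the receptor for the self signal CD47, C5AR1 (7.49 ± 0.057), the receptor for complement fragment C5a, and TREM2 (7.26 ± 0.011), a lipid-sensing receptor that signals through TYROBP. The costimulatory genes CD86 (2.92) and CD80 (2.24), the formyl peptide receptor FPR1 (2.53) and the fractalkine receptor CX3CR1 (4.14) lay under it.

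Markers of other cell types were mostly under the reference limit, which does not show that their transcripts are absent. Over 9 lists of such markers, 7 of 95 named genes were above the limit, against 31.9% of protein-coding genes. They were TIE1 (8.09), KRT18 (7.71, in the brighter of 2 rows), CD22 (7.33), TCF4 (7.04), NCAM1 (6.49), PECAM1 (5.85) and TBX21 (5.73). TIE1 is a receptor of endothelial cells, KRT18 a keratin of simple epithelia, and PECAM1 is also made by monocytes. In bulk RNA, few cells with much of a transcript and many cells with little cannot be told apart. None of the 6 named T and NK cell markers among those fixed to define cell types was above it, and their levels ran from 3.06 to 4.73; 0 of 3 epithelial, 0 of 2 mast cell, 0 of 2 fibroblast or endothelial and 0 of 1 dendritic markers were. CD22, an inhibitory lectin best known from B cells, was the 1 named B cell marker, at 7.29, 7.43 and 7.26. The other B cell list genes, such as PAX5 (4.27) and BLNK (2.06), were under the limit. The 4 erythroid markers fixed in the same way were not named.

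**Figure D2:**
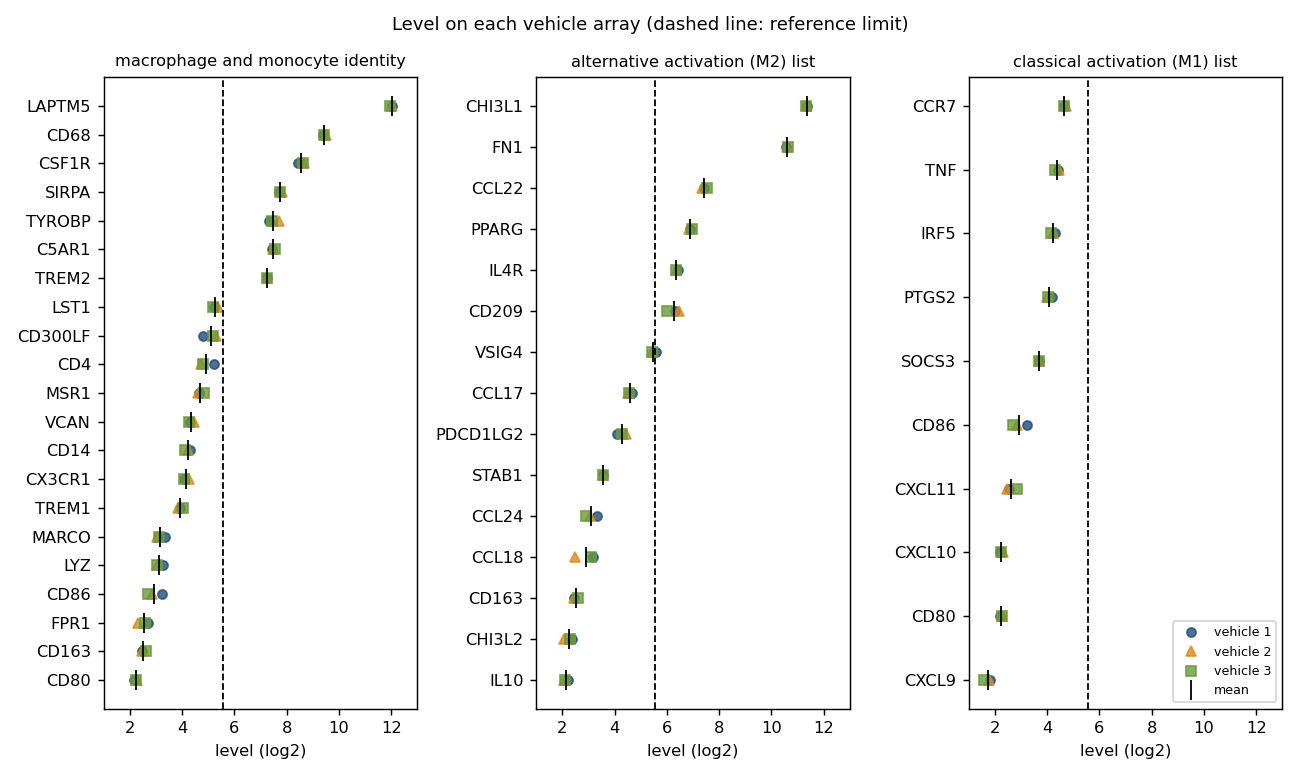
Level in log2 units (horizontal axis) of each named member of 3 lists on vehicle arrays 1 to 3 (circle, triangle, square), with the mean as a bar and the reference limit of 5.55 as a dashed line. The 3 arrays agree closely, 7 of 21 identity genes and 6 of 15 genes of the alternative activation list lie to the right of the line, and 0 of 10 genes of the classical activation list do.

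The listed promoters of some of these markers carry letters bound by the factors named above. Of these, 3 are shown because they hold AP-1 or PU.1 letters near a listed RefSeq start of a macrophage marker gene. They were chosen after the matches were seen. Each is the 250 bases before the RefSeq start in GRCh38.p14, 5′ to 3′ on the gene's strand, with the matching letters in capitals: TGAGTCA for AP-1 in CD68 and CSF1R, and GAGGAAG, on either strand, for PU.1 in TYROBP.
CD68 (chr17:7579388-7579637, strand plus): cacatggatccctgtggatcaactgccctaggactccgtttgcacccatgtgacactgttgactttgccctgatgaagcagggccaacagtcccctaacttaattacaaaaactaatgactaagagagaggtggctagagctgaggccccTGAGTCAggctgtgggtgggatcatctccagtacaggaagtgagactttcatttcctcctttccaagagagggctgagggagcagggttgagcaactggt
CSF1R (chr5:150113366-150113615, strand minus): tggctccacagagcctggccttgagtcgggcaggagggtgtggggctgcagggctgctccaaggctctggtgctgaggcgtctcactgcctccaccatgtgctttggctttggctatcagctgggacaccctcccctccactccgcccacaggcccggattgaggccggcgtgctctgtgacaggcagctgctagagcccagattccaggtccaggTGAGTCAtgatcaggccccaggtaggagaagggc
TYROBP (chr19:35908296-35908545, strand minus): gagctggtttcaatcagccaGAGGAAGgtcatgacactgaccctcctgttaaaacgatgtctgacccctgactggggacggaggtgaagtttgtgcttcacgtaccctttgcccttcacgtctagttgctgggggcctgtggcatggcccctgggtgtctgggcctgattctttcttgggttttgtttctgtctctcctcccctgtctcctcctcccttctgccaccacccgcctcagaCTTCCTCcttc
The match begins 100 bases before the start in CD68 and 34 bases before it in CSF1R, whose entry is the first of 2 listed. Which CSF1R start these cells use was not measured, so its match may lie outside the promoter in use. In TYROBP the matches begin 230 and 11 bases before the start. Over the 300-base windows of all 9707 protein-coding genes with a listed promoter, from 250 before to 50 after the start, TGAGTCA occurred in 3.52% and GAGGAAG in 14.7%. Among 16 identity genes with a promoter, 4 held the first (CD68, CSF1R, CD14, FPR1) and 6 the second (TYROBP, C5AR1, LST1, CD14, TREM1, CD86). Both sets hold genes above and below the limit. A match of letters is a description and does not show that a factor binds there.

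Of 18 named myeloid transcription factor genes 9 were above the limit, against 31.9% of protein-coding genes. The highest was STAT3, the mediator of interleukin signals, at 7.91, 7.94 and 7.93. ETV6, an ETS family repressor, averaged 7.71 ± 0.11 (SD, n = 3). SPI1 itself read 7.17, 7.30 and 7.16. The ranges of the 3 genes did not overlap. The lipid-sensing receptor PPARG was at 6.90 ± 0.043, the macrophage factor MAF at 6.72 ± 0.18 and EGR1, an early factor of phorbol ester responses, at 7.08 ± 0.041. IRF8 (5.17), KLF4 (5.11), IRF1 (4.88) and TFEB (3.57) were under the limit. Among 16 factors of other blood lineages only TBX21, a T and NK cell factor, was above it, by little (5.73); GATA1 was at 4.73 and RAG2 at 1.84. Of the 26 named genes of the HOXB, HOXC and HOXD clusters 0 were above, the highest being HOXD10 at 4.91. HOXA genes, which the KMT2A fusion is known to keep active in leukaemia, were named only for HOXA2 (3.10), so this feature could not be described. Of its partners, MEF2C stood at 6.33, PBX3 at 5.39 and MEIS1 at 2.40.

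Receptors for microbes and lipids were represented unevenly. Among Toll-like receptors, TLR2, which senses bacterial lipopeptides, was brightest at 7.99 ± 0.043 (SD, n = 3), and its partners TLR1 and TLR6 averaged 6.95 ± 0.20 and 6.13 ± 0.083. TLR4, the lipopolysaccharide receptor, read 6.23, 6.47 and 6.29. The receptors that face nucleic acids inside endosomes were under the limit: TLR9 at 3.81, TLR7 at 2.19, TLR3 at 1.92 and TLR8 at 1.77. The cell-surface receptors TLR5 (2.98) and TLR10 (3.18) were dim as well. So was LY96 (1.88), the protein that holds lipopolysaccharide on TLR4. Of the signalling genes, the inhibitory kinase IRAK3 (7.22), IRAK2 (6.71), IRAK1 (6.52) and the adaptor MYD88 (6.07) were above the limit. With the trafficking protein UNC93B1 (5.93), which carries the endosomal receptors, the list had 9 of 18 above it, against 31.9% of protein-coding genes.

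In the cytosolic sensor list 3 of 12 were above, a share of 25% that is near or below the 31.9% of protein-coding genes: the DNA sensor CGAS (6.60), the RNA-signalling adaptor MAVS (6.48) and the inflammasome adaptor PYCARD (5.93), with STING1 at 5.40 and AIM2 at 2.18. Lectin and scavenger receptors had 6 of 10 above. CD36, which takes up oxidised lipoprotein and dying cells, was at 7.27, 7.28 and 7.22. CD209, a lectin of dendritic cells and macrophages, was at 6.33, 6.45 and 5.99, and OLR1, the receptor for oxidised lipoprotein, at 6.25 ± 0.19. The scavenger receptors MSR1 (4.70), STAB1 (3.54) and MARCO (3.17) were under the limit. Of complement genes 3 of 15 (20%, against the same 31.9%) were above it, namely the C5a receptors C5AR2 (8.25) and C5AR1 and the central component C3 (7.11).

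Uptake of apoptotic cells was led by MERTK, a receptor tyrosine kinase that recognises them through bridging proteins, at 9.44, 9.46 and 9.55. The related receptors TYRO3 (4.06) and AXL (3.58) were under the limit on all arrays, as were the bridging protein GAS6 (4.14) and, more narrowly, PROS1 (5.48). MFGE8, a bridge to integrins, read 7.37, 7.35 and 7.37. CD47, the self signal that blocks uptake, averaged 8.04 ± 0.032 (SD, n = 3), next to its receptor SIRPA above. The cytoskeletal regulators of engulfment DOCK2 (7.45) and ELMO1 (6.27) were also above the limit. This list had 9 of 20 above, against 31.9% of protein-coding genes.

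Signals between cells showed a few bright genes over many dim ones. Of 36 named chemokines 7 (19.4%) were above the limit, below the share of all protein-coding genes, and the list median was 3.15. CCL22, which draws T cells through CCR4, read 7.41, 7.35 and 7.54. CXCL8, the neutrophil chemokine interleukin-8, read 7.07, 7.17 and 7.29, and CCL20, the ligand of CCR6, read 7.07, 7.31 and 7.13. The ranges of CXCL8 and CCL20 overlapped. The membrane-bound chemokine CXCL16 (7.06) and CCL5 (6.28 ± 0.099, SD, n = 3) came next. CXCL5 (5.69 ± 0.30) and CCL4 (5.68, 5.89 and 5.18) were above the limit on arrays 1 and 2 and below it on array 3. Chemokines typical of interferon gamma responses were dim, with CXCL10 at 2.24, CXCL11 at 2.62 and CXCL9 at 1.72. The monocyte chemokine CCL2 was at 2.95. Among 20 chemokine receptors CXCR4 (6.96, 6.97 and 6.62) and CCR1 (6.29, 6.12 and 5.97) were above the limit, a smaller share than the 31.9% of protein-coding genes. CCR2, the receptor of classical monocytes, was at 2.48.

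Cytokines above the limit were 6 of 29, a share below the 31.9% of protein-coding genes. GRN, the precursor of granulins and a lysosomal growth factor, read 9.61, 9.79 and 9.66. HBEGF, a ligand of the epidermal growth factor receptor, read 9.05, 9.13 and 9.06, and CSF1, the ligand of CSF1R, read 8.14, 8.17 and 8.04. Both CSF1 and its receptor were thus among the bright genes. The others were MIF (7.61), the interleukin-1 receptor antagonist IL1RN (7.42) and the angiogenic factor VEGFA (6.65). TNF was at 4.38 ± 0.075, IL18 at 4.19 and IL10 at 2.13, and IL1B and IL6 were not named. EGFR, the receptor of HBEGF, was at 2.89 ± 0.15. The receptors IL17RA (8.81), IL6R (7.83), IL4R (6.37) and IL7R (6.07) and both named chains of the interferon gamma receptor, IFNGR2 (6.26) and IFNGR1 (5.87), were above the limit. With CSF1R the receptor list had 7 of 18 above, against 31.9% of protein-coding genes.

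Lists of genes used to sort macrophages by activation state held mostly genes under the limit, for which no reading is made. Of the classical list, tied to interferon gamma and lipopolysaccharide, 0 of 10 named genes were above the limit, with CCR7 highest at 4.66 ± 0.044 (SD, n = 3). Of the alternative list, tied to interleukin-4 and repair, 6 of 15 were (40%, against 31.9% of protein-coding genes): CHI3L1, FN1, CCL22, PPARG, IL4R and CD209. VSIG4, a complement receptor, lay at the limit (5.57, 5.41 and 5.42), and CCL17 (4.57), PDCD1LG2 (4.27), CCL18 (2.92), CD163 and IL10 were under it. Interferon-stimulated genes were above the limit in 4 of 20, a share below the 31.9% of protein-coding genes. USP18, which removes ISG15 from proteins, read 8.16, 8.14 and 8.08, and the kinase EIF2AK2 averaged 7.49 ± 0.13, followed by IFITM2 (6.80) and XAF1 (6.20). Others of this list were low, among them ISG15 (4.86), IFI44L (1.94) and IFIT1 (1.86).

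Lysosomal genes were among the brightest groups. Of 26 named cathepsins and hydrolases 19 (73.1%, against 31.9% of protein-coding genes) were above the limit, and the median was 6.80. PPT1, CTSD and PSAP led the list. The peptidase TPP1 read 9.09, 9.13 and 9.13, cathepsin L, CTSL, read 8.78, 8.93 and 9.11, and cathepsin S, CTSS, the protease that trims the class II invariant chain, read 8.40, 8.46 and 8.33. These 3 proteases were above the limit on every array. CTSA (8.82), the ceramidase ASAH1 (8.02) and cathepsin B, CTSB (7.20), were above the limit as well, and LGMN (3.10), CTSF (3.19), CTSV (3.50) and CTSE (3.74) were under it. Of 8 named membrane proteins 6 were above, with LAMP1 at 7.91, LAMP2 at 7.51 and the calcium channel MCOLN1 at 7.44. LAMP3, a protein of mature dendritic cells, was at 2.85. The subunits of the lysosomal proton pump were not named.

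The E-box CACGTG, the core of the site through which TFEB and its relatives switch on lysosomal genes, was found in the promoters of CTSD, CTSA, GALNS and CTSF among 16 hydrolase genes and of LAMP1, MCOLN1 and CD63 among 6 membrane genes, against 9.10% of all promoters. MYC binds the same letters. The CTSD promoter is shown for its E-box, which begins 47 bases before the start, and that of CHI3L1 for a TATA box, TATAAA, 27 bases before it, a kind of promoter that is infrequent among bright genes. Both were chosen after the matches were seen.
CTSD (chr11:1763928-1764177, strand minus): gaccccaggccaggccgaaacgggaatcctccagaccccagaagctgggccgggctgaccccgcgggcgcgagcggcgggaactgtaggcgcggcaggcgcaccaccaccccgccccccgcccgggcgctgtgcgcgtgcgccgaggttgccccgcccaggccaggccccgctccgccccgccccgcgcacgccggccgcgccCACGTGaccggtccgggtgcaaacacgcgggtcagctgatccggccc
CHI3L1 (chr1:203186705-203186954, strand minus): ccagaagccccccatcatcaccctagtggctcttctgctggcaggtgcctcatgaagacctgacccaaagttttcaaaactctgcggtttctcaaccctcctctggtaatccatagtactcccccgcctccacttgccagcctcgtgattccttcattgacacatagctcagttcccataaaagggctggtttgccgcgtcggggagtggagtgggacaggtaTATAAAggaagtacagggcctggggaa
Of the related factors, TFE3 was at 6.72 ± 0.083 (SD, n = 3), MITF at 5.33 and TFEB at 3.57.

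Matrix proteins and proteases followed closely, with 13 of 21 above the limit, against 31.9% of protein-coding genes, and a median of 6.78. Beside SPP1, MMP14 and FN1, the protease inhibitor TIMP3 read 10.16, 10.19 and 10.11 in the brighter of its 2 rows. The sheddases ADAM17, ADAM9 and ADAM10 averaged 9.40, 9.27 and 8.78, and TIMP1 8.24. The secreted collagenases and related enzymes MMP1 (5.05), MMP8 (3.64), MMP10 (2.40), MMP12 (1.84) and MMP13 (1.59) were under it. MMP12, the macrophage elastase, was low on every array (1.78, 1.87 and 1.87). MMP9 was not named.

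Lipid handling had 14 of 18 genes above the limit, against 31.9% of protein-coding genes. Beside SCD, the lipase LPL read 9.30, 9.27 and 9.36, and the fatty acid activating enzyme ACSL1 read 8.82, 8.85 and 8.81. LPCAT3 (8.11), the lipoprotein receptor VLDLR (8.03) and fatty acid synthase, FASN (7.77), were also bright, while APOE (4.74, 4.59 and 4.73) was the lowest member. In cholesterol synthesis 10 of 17 were above: the epoxidase SQLE at 9.27, 9.28 and 9.30, MSMO1 at 8.27, the sterol sensor partner INSIG1 at 7.84 and HMGCS1 at 7.37. Antioxidant genes had 15 of 17 above, led by HMOX1, the heme-degrading enzyme, at 9.17, 9.26 and 9.18, with the peroxidase PRDX6 at 8.35, GSR at 8.34 and TXN at 8.23. Iron genes had 5 of 13, nearer the 31.9% of protein-coding genes, with the ferritin receptor NCOA4 at 8.54. Ferritin genes were not named. In glycolysis 7 of 10 were above, with GPI highest at 8.50 and HK2 at 7.35.

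Actin regulators and chaperones had the highest medians of the lists with at least 5 named members, 7.96 and 8.02. Of the former 11 of 13 were above the limit, among them TMSB10 (9.70), the Arp2/3 subunit ACTR3 (9.67) and talin, TLN1 (9.14). Of the latter 10 of 11 were, with CANX (9.55) and HSPA9 (9.27) after CALR. HSPA1A and HSPA1B (7.96 and 7.94) are nearly identical genes that the array cannot part. Class I antigen presentation had 5 of 12, against 31.9% of protein-coding genes, among them TAPBP (9.31) and B2M (8.29). Class II had 2 of only 3 named genes, since the HLA genes and CD74 were not named. Granule and oxidative burst genes had 1 of 14, a share below the 31.9% of protein-coding genes, namely catalase, CAT (5.93). S100A9 (4.59), S100A8 (2.87) and MPO (3.05) were dim, and the core NADPH oxidase subunits were not named.

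Proliferation genes were above the limit in 28 of 32 (87.5%), against 31.9% of protein-coding genes. PMA differentiation is known for arresting THP-1 cells. MKI67, a marker of cycling cells, read 8.75, 8.82 and 8.60. TOP2A, the topoisomerase of S phase and mitosis, read 8.32, 8.41 and 8.42, and CDC20, the activator of the anaphase ligase, read 8.14, 8.14 and 8.06. All 3 lay well above the limit on every array. The replicative helicase genes MCM4 (7.91), MCM3 (7.58) and MCM5 (7.39) and the kinase PLK1 (7.05) followed. KIF20A (5.46), AURKB (5.38), CCNB2 (5.32) and CCNB1 (4.97) were under it. Whether the cells were dividing was not measured. Of the G1 genes CCND1 (8.69, 8.71 and 8.64) and RB1 (8.69) were bright, while CCND3 (4.07) and CCND2 (3.83) were not. CDKN2A, the gene of the p16 and ARF inhibitors, which THP-1 cells are known to lack, was at 2.47, 2.18 and 2.25. MYC was at 4.87, 5.08 and 4.84. Among apoptosis regulators 10 of 16 were above, with the survival factor MCL1 highest (9.18 ± 0.10, SD, n = 3).

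**Figure D3:**
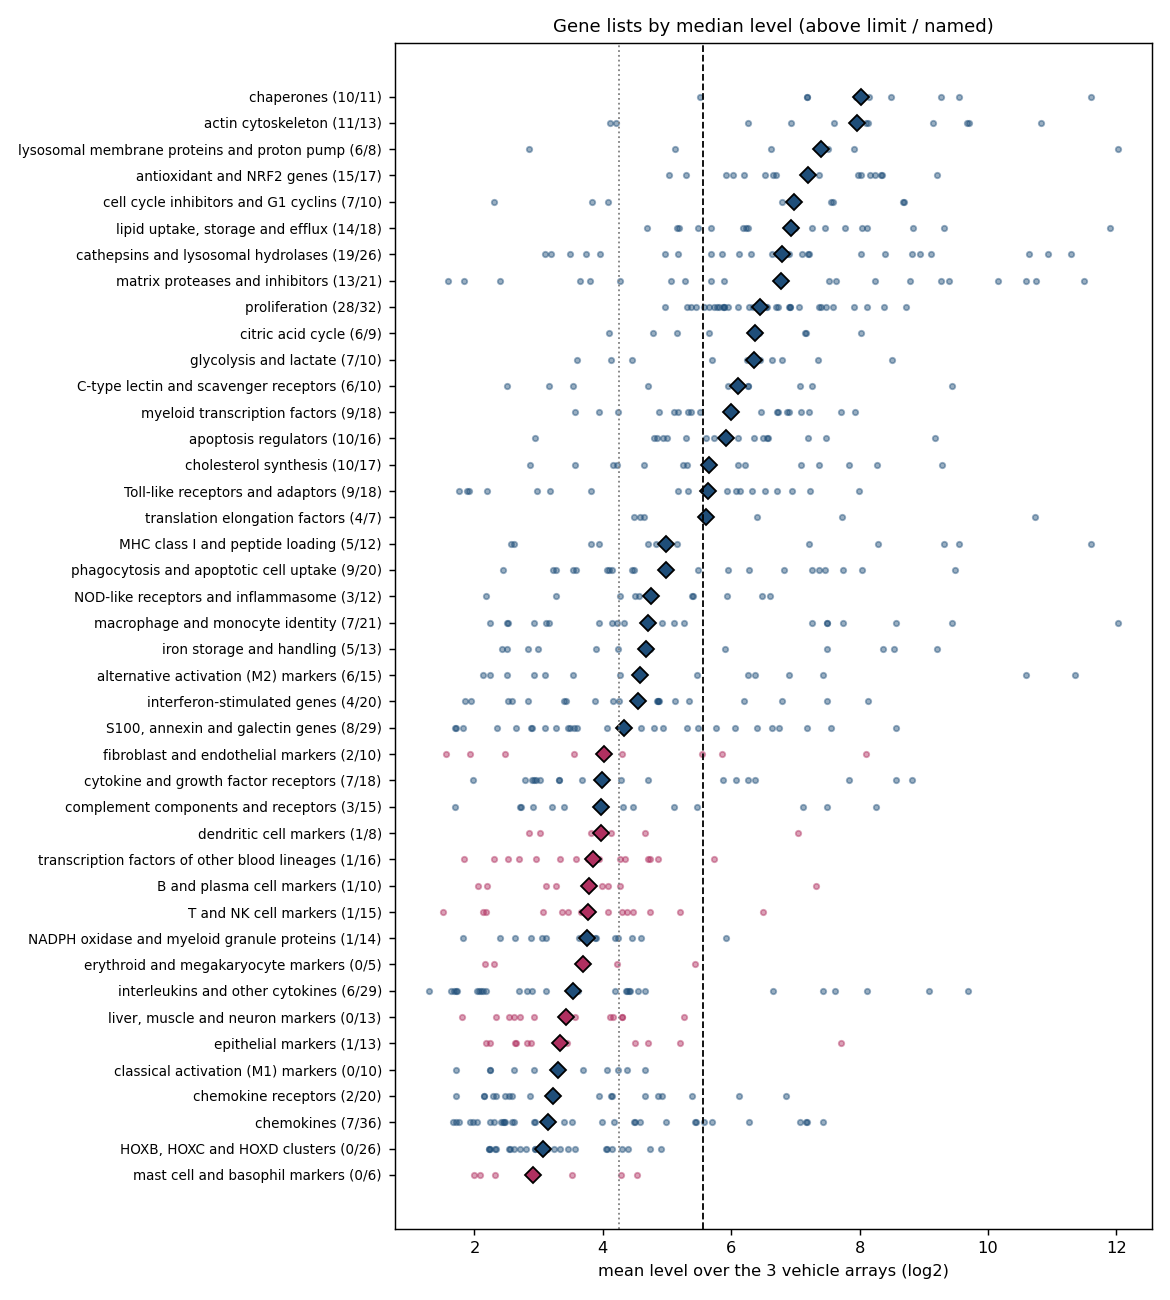
Mean level over the vehicle arrays in log2 units (horizontal axis) of every named member (points) and the median (diamond) of each list with at least 5 named members; red lists are markers or factors of other cell types, the dashed line is the reference limit of 5.55 and the dotted line the median of all genes, 4.26. Chaperones, actin regulators and lysosomal membrane genes have the highest medians, and the medians of all red lists lie left of the dotted line.

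Some of the brightest genes were neighbours on a chromosome. Chromosome 1 held 1200 of the 11916 named protein-coding genes, more than any other chromosome. Of the 25 brightest protein-coding genes 8 lie on chromosome 1, and PPT1, RLF, ZMPSTE24 and SMAP2 are close neighbours there. This was seen in the ranked list first, and every run of 10 neighbouring named protein-coding genes was then scored by its median level, so the result describes that observation and is no test of it, with gene order from the RefSeq table of assembly GRCh38.p14. The run from PPT1 to CTPS1 had the highest median of 11703 overlapping runs, 8.42, against 4.64 for the median run and 6.79 for the 99th percentile. In it PPT1 (11.29), SMAP2 (11.07), RLF (10.53), ZMPSTE24 (10.40), ZFP69B (8.77), CTPS1 (8.07), EXO5 (7.91), ZFP69 (7.87) and ZNF684 (7.31) were above the limit, and TMCO2 (3.74) was not. The highest run on vehicle arrays 2 and 3 alone was the same 10 genes, and on array 1 it shared 7 of them. The 15 named genes on either side had 18 of 30 above the limit and a median of 6.10. The next separate run lay on chromosome 5 and had a median of 7.90, with GOLPH3 (8.84), ZFR (8.82) and MYO10 (8.34) as its brightest genes. Copy number was not measured. Over whole chromosomes the share of protein-coding genes above the limit ran from 23.6% on X and 23.8% on 21 to 37.7% on 18.

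**Figure D4:**
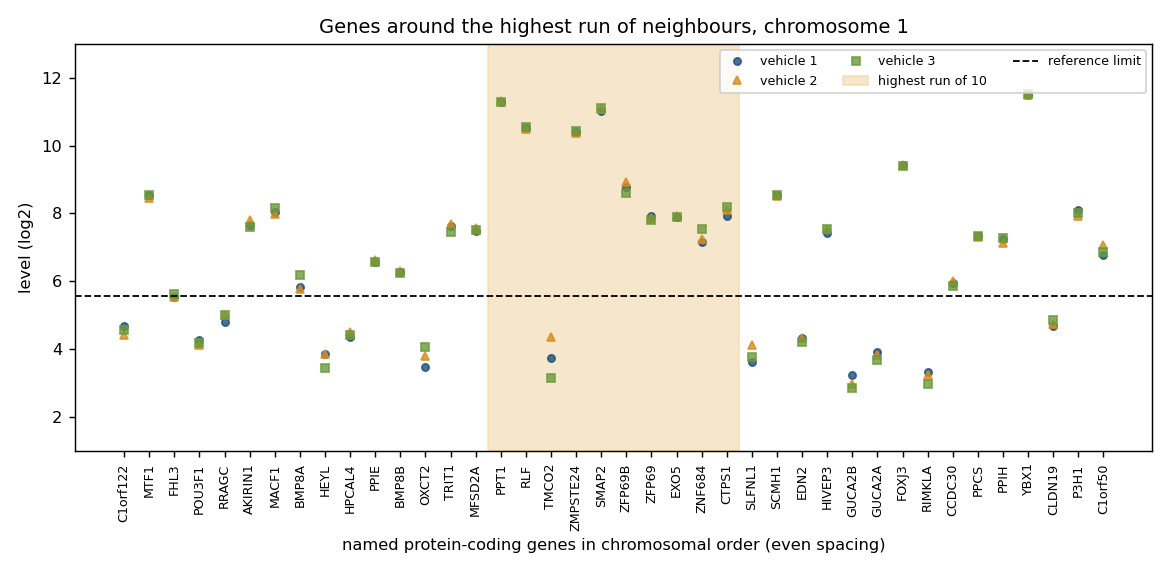
Level in log2 units (vertical axis) of 40 neighbouring named protein-coding genes of chromosome 1, evenly spaced in chromosomal order (horizontal axis), on vehicle arrays 1 to 3 (circle, triangle, square); the shaded genes are the highest run and the dashed line is the reference limit. In the shaded run 9 of 10 genes lie above the limit, 4 of them above 10 log2 units, and TMCO2 lies below it.

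Promoter sequence differed with level across the 9707 protein-coding genes with a RefSeq promoter. The ratio of observed to expected CG pairs had a median of 0.385 in the lowest decile of levels, 0.798 in the fifth and 0.863 in the highest. The GC box GGGCGG, bound by SP1, was found on either strand in 35.4% of promoters in the lowest decile and 72.7% in the highest. The TATA box went the other way, 20.4% in the lowest decile and 6.28% in the highest, with its minimum of 3.61% in the eighth. The ETS core CCGGAAG was in 6.49% of the lowest decile, 23.3% of the ninth and 18.0% of the highest. The PU.1 core, which shares the letters GGAAG with it but cannot match at the same place, was highest in the top decile, at 19.4% against 12.5% to 15.4% in the other deciles. The AP-1 letters showed no such rise, with 4.53% in the lowest decile and 3.30% in the highest. The CCAAT box stayed between 33.0% and 38.9%. The letters GCGCATG, bound by NRF1, went from 2.78% to 8.14%, the letters TGACGTC, bound by CREB and ATF factors, from 2.68% to 6.08%, and the E-box from 5.66% to 11.1%. The median gene length was 27.6 kb in the lowest decile, 18.0 kb in the fourth and 48.0 kb in the highest. These are shares over genes, with no test, and CG-rich promoters also raise the chance of finding CG-rich letters.

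**Figure D5:**
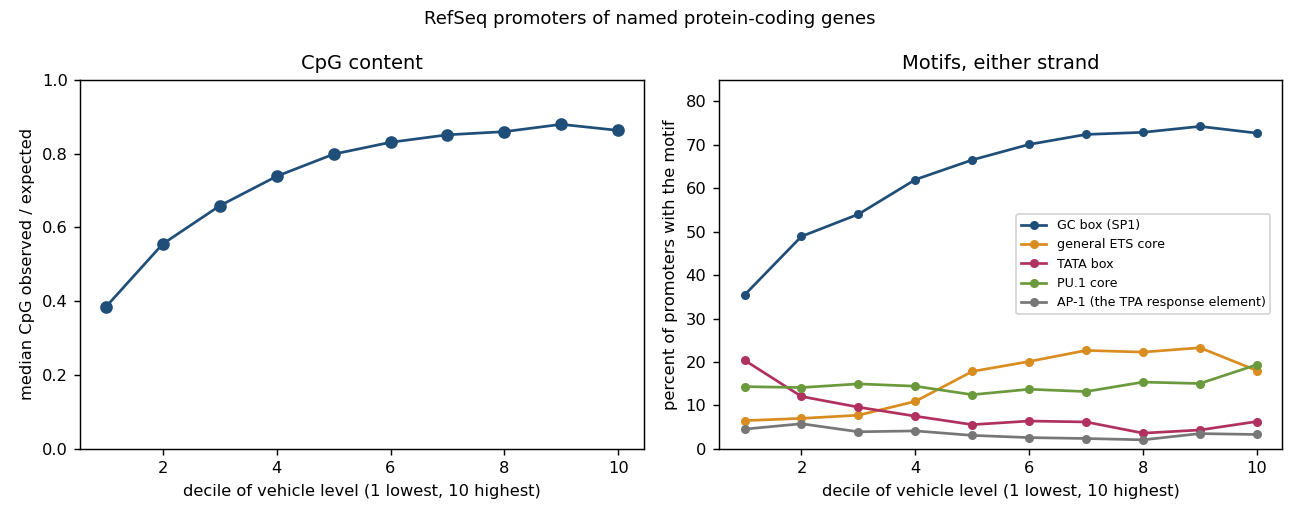
Left, median ratio of observed to expected CG pairs in promoters, and right, percent of promoters holding a motif on either strand (vertical axes), by decile of vehicle level from 1, the lowest, to 10, the highest (horizontal axes). The CG ratio and the GC box share climb over the lower deciles and level off, the TATA box share falls from 20.4% to 6.28%, and the PU.1 core is highest in the top decile at 19.4%.

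The brightest named non-coding RNAs were structural. RMRP, the RNA of RNase MRP, read 12.06, 12.04 and 11.94. The snaR genes SNAR-B1 (11.74) and SNAR-C1 (11.41) have several near-identical copies, which the array may not part. The 5 rows of SNAR-C1 ran from 8.21 to 11.41, and the 3 rows of SNAR-B1 from 11.51 to 11.74. The long non-coding RNA MALAT1, a component of nuclear speckles, read 11.40, 11.29 and 11.33, followed by LINC01347 (9.97), MIR4435-2HG (9.94), NORAD (9.67), a decoy for PUMILIO proteins, and LINC00987 (9.62). The small Cajal body RNAs SCARNA4 and SCARNA5 were at 8.83 and 8.72, and both lie within other genes, KHDC4 and ATG16L1. Of transcribed pseudogenes HNRNPA1P10 (9.55), ANXA2P2 (9.40), HERC2P3 (8.87), NSFP1 (8.60) and PMS2P5 (7.98) were highest. Their probes may also read the parent genes. Here too the brightest row was used, and the dimmest was at 9.01 for MALAT1, 7.30 for MIR4435-2HG and 7.46 for HNRNPA1P10.

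The 5 brightest microRNA genes were MIR3916 (8.76 ± 0.14, SD, n = 3), MIR1299 (8.68 ± 0.12), MIR612 (8.60 ± 0.24), MIR4737 (8.57 ± 0.042) and MIR4442 (8.17 ± 0.17). MIR612 lies within NEAT1, a long nuclear RNA, and MIR4737 within HEATR6. Probes for a hairpin also read a longer host RNA, so these values do not measure mature microRNAs. The mature sequences that RefSeq gives for 4 of them are shown so that the measured loci can be identified, with the seed, bases 2 to 8, in capitals.
hsa-miR-3916: aAGAGGAAgaaauggcugguucucag
hsa-miR-1299: uUCUGGAAuucugugugaggga
hsa-miR-4737: aUGCGAGGaugcugacagug
hsa-miR-4442: gCCGGACAagagggagg
No 2 of the 4 share a seed.

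The genes that varied most between the vehicle arrays were few. Among genes above the limit 59 had an SD over 0.3. MIR3135A was at 6.52, 4.72 and 6.24, with array 2 low, and the protocadherin PCDH11X at 7.06, 6.14 and 5.92, with array 1 high. SERF2, which encodes a small protein that speeds amyloid formation, was at 8.28, 8.24 and 9.09, with array 3 high. PCBP2, a protein that binds poly(C) RNA, was at 7.01, 7.76 and 7.72. The other 6 of the 10 most variable were MIR4453, MIR486-1, MIR423, MIR4292, ZNF93 and OTX1, with SDs of 0.41 to 0.51. Each rests on 3 values.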

How the data were processed

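Total RNA from 9 samples was hybridised to Affymetrix Human Gene 2.0 ST arrays, 1 sample per array; only the 3 vehicle arrays were used. Per the labels, a service provider made gene-level values with standard Affymetrix pipelines, and the submitters' processing notes list Affymetrix Power Tools. How background was corrected, how probes were summarized and which log base applies is not stated there. The deposited values were taken as log2 because of their range (0.68 to 13.11 on the vehicle arrays). With another base the printed levels would keep their order.

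The platform annotation named 16098 of 53617 rows (30.0%) with 1 gene each and 0 with several. All 16098 Entrez identifiers matched RefSeq GRCh38.p14. Of 779 genes with several rows the row with the highest vehicle mean was used; the brightest and dimmest rows differed by a median of 0.94. Means, SDs (n = 3), percentiles, counts above the reference limit and motif matches were computed with Python 3.11.15 and pandas 2.3.3, and the script was tested on simulated data. No group was compared with another, so no p-value is given. The spread is that between samples called biological replicates.

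The text names the 25 brightest protein-coding genes, up to 5 highest and 2 lowest members of each described list, any member of the identity, polarisation and receptor lists, the 10 most variable genes above the limit, the 5 highest of each non-coding class and fixed genes; further list members were picked with their values in view. Of 45 lists with 1051 genes, 618 were named and 247 were above the limit; 21 symbol families were also searched and 6 had 0 named members. The members and lists were chosen with earlier results of these data known. For 9707 of 11916 protein-coding genes (81.5%) the first listed RefSeq promoter was used; 2583 of them have several. Protein features were planned and not analysed here. Alternatives were another row rule, another normalization, another limit and leaving out each array.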

Additional observations from a re-analysis of the deposited data

Results flagged for a closer look

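High values also lay in rows that the gene-level description does not use. Of the 37519 rows without a gene name, 5678 (15.1%) had a mean above the reference limit on the vehicle arrays, against 26.5% of the named rows. Their median was 3.01, and 32 of them were brighter than LAPTM5, the brightest named gene, with a highest mean of 13.10. What these rows measure was not analysed here. Groups of 3 arrays are too small for the search for single outlying samples, and none was run.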

How the results depend on the processing

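Counts against the reference limit moved most with the limit itself: 1159 genes and 115 of the listed genes were above the 99th percentile of the keratin-associated genes, and 7442 genes were above the median of all genes. The count of members above moved by over 1.5 times in 40 of 60 lists and families with the former and in 34 with the latter. Smaller changes are not counted there. The mean over all rows of a gene gave a median level of 4.21, moved SCD and HMGA1, and moved the count of members above the limit by over 1.5 times in 3 lists and families: HOXA genes and partners, epithelial markers and keratins, each from 1 to 0. KRT18, MEF2C, EGR1 and IRAK3 then lay under it. The median of the arrays moved 1, the SIGLEC genes, from 2 to 1. Leaving out each array gave a median SD of 0.083 to 0.091, lower because it then rests on 2 values, and moved the count of members in 0 lists by over 1.5 times. With any listed promoter of a gene, chosen after seeing the data, the GC box share of the highest decile was 79.4% and the TATA box share 8.96%. A window of 20 genes, also chosen later, gave a highest run median of 7.73. The 32 other settings of these results kept their value within the limits set. No paired analysis was possible because only 1 group is described. The signal of 3 arrays, with no read depth, limits what can be said of genes near the reference limit: 579 genes lay on both sides of it.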
